A study of Mus musculus with 6 samples.

Results

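Hereditary hearing loss genes outside the best known hair bundle, connexin and tectorial membrane groups were followed in organoids grown from mouse cochlear progenitor cells. The set was a list of 45 gene symbols, of which 41 matched a row among the 15016 genes of the expression table. Esrrb, Grxcr1, Pax3 and Bsnd were not analysed here. The series compared 3 RNA-seq libraries of organoids from soft gels with 3 from stiff gels, 6 in all, and asked how the stiffness of the surrounding matrix acts on the cells. All organoids were wild type (labelled WT) and derived from inner ear tissue. Both groups were first expanded for 8 to 10 days in a medium with EGF, bFGF and IGF (50 ng/mL each), the GSK3 inhibitor CHIR99021 (3 µM), valproic acid (500 µM), 2-phospho-L-ascorbic acid and the compound 616452 (2 µM). Both were then moved to a differentiation medium with CHIR99021 (3 µM) and LY411575 (5 µM), which inhibits gamma-secretase and with it Notch signalling, and only at that stage divided between the soft and the stiff hydrogel. The hydrogels are labelled GelMA-HA-RGD, a gelatin and hyaluronic acid gel with adhesion peptides; the labels give neither their stiffness, nor the time spent in them, nor the animals' age. The labels number the libraries 1 to 3 in each group without saying whether these were separate cultures, so the spread behind each p-value may be technical.

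Hearing depends on many cell types of the cochlea, and genes mutated in human deafness are spread over all of them. Hair cells carry a bundle of actin-filled stereocilia whose links, scaffolds and myosins are frequent sites of mutation. Other deafness genes act in the matrix around the sensory epithelium, in the pigment cells of the stria vascularis that come from the neural crest, in the transcriptional control of the otic epithelium, or in mitochondrial protein synthesis, whose loss affects the ear although every cell needs it. The genes are described below by these roles, as levels in FPKM (fragments scaled to gene length and library depth), which can be compared between genes, and as log2 fold changes of FPKM + 1, stiff minus soft, with 95% confidence intervals from limma.

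None of the hearing loss genes tested passed the threshold for a difference between soft and stiff gels. The genes with the clearest separation were Whrn, lower in stiff gels, and Ednrb and Adcy1, higher; each of these 3 passed in an alternative fit, as given with its values. Of the 41 genes, 28 had a mean of at least 1 FPKM in either group and were tested, and 13 were below that filter. The stiff gels held 0 of the 28 tested genes at a higher level and 0 at a lower one by limma (Benjamini-Hochberg adjusted p under 0.05 over 11780 genes), where 3.13% of all tested genes were higher and 2.68% lower, 5.81% together. Whrn, Adcy1 and Cd164, 3 of the 28, had an unadjusted p under 0.05, against 21.7% of all tested genes. Groups that did not overlap were seen in 5 of the 28, against 25.9% of all tested genes; Eya4, Cd164 and Adcy1 were higher in every stiff library and Whrn and Diaph3 were lower. The median log2 fold change was 0.04 over the 28 genes and 0.03 over all tested genes, and the median absolute value was 0.09 in both. For 17 of the 28 genes the 95% interval lay inside ±0.3 on the log2 scale, and for 26 inside ±0.5. The exceptions at 0.5 were Whrn and Lars2. A missed threshold does not show that a gene was the same in both gels; the intervals give the change that remains possible.

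**Figure D1:**
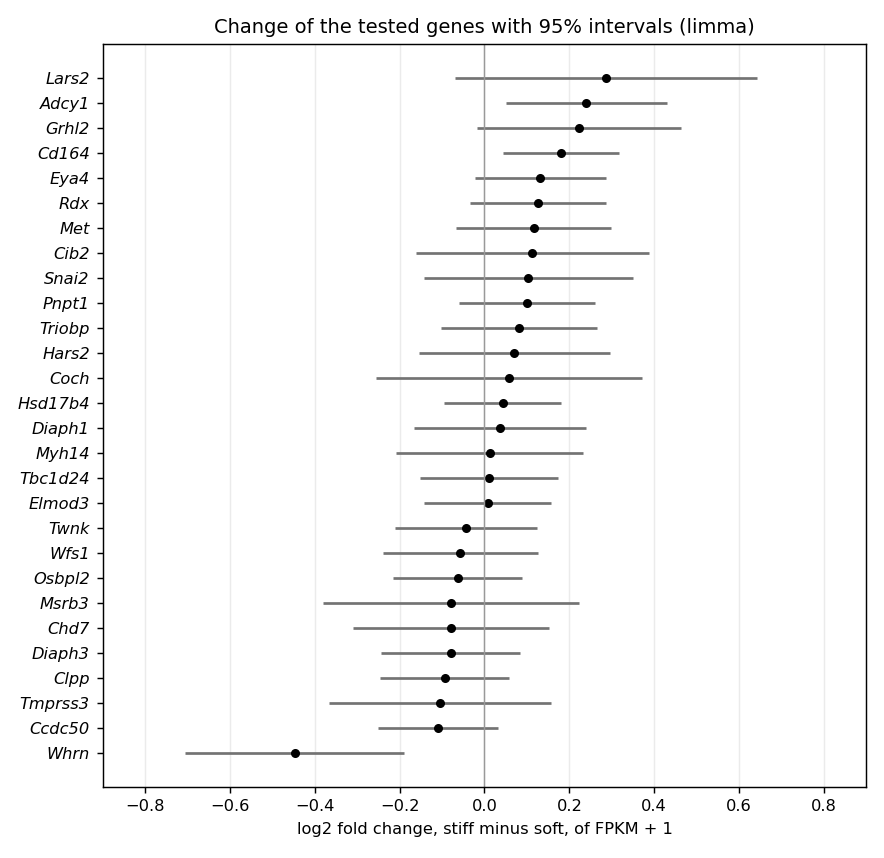
Log2 fold change (stiff minus soft, of FPKM + 1) of the 28 tested hearing loss genes on the horizontal axis, ordered by value, with points for the limma estimate and lines for its 95% interval. The estimates run from -0.45 for Whrn to 0.29 for Lars2, and the intervals of 3 genes, Whrn, Adcy1 and Cd164, do not include 0.

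Depth ranged from 16108470 to 17899391 reads per library over the listed genes, and a count of 0 in a library allows up to 3 reads, which covers counting error only. Soft replicate 1 lay between the groups, at -1.94 on the first principal component against -16.1 and -18.9, with the stiff libraries from 7.89 to 17.3. Supporting cell and prosensory markers were present at uneven levels. Epcam, a general epithelial gene, was at 229 ± 21.1 and 268 ± 16.3 FPKM (SD, n = 3) in soft and stiff gels. Sox2 was at 1.47 ± 0.797 and 5.03 ± 0.615 FPKM, while Prox1 and Fgfr3 were under the filter, with means of 0.862 and 0.348 FPKM. Higher means were seen for Gjb2 (125 FPKM over the 6 libraries), Lgr5 (40.2), Cdkn1b (33.3), Sox9 (25.4), Jag1 (21.2) and Hey2 (18.0). By limma 3 of 8 tested markers of that list, Sox2, Lgr5 and Jag1, rose in stiff gels, against 3.13% of all tested genes. Each call was lost without at least 1 library (highest limma adjusted p 0.0589, 0.0785 and 0.0704 in that order). Hair cell markers were low or absent: of 10 listed markers 4 matched a row, their summed level was 2.09 to 2.31 FPKM in soft and 2.27 to 2.57 FPKM in stiff gels, most of it Myo7a. Slc17a8 had 33 to 62 reads per library, while Gfi1 and Otof had at most 9 and 7 reads in any library. In bulk libraries such as these, fewer cells of a type and less RNA per cell cannot be told apart.

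The levels spanned a wide range. Among tested genes the mean over the 6 libraries ran from 1.54 FPKM for Adcy1 to 92.9 FPKM for Cd164, with a median of 11.2 FPKM, close to the 10.6 FPKM of all tested genes. The 5 most abundant were Cd164, Rdx, Hsd17b4, Clpp and Eya4. The order within the middle of the range was not resolved: Coch, Chd7, Diaph1 and Tmprss3, for example, had overlapping values. The 13 genes under the filter ran from 0.0162 FPKM for Tmem132e to 0.842 FPKM for Homer2. Of these 13, 8 had at least 10 reads in every library, while Edn3, Loxhd1, Gipc3 and Tmem132e stayed under 10 reads in every library. The spread between libraries of a group was small for most genes, with a median coefficient of variation of 7.93% in soft and 5.84% in stiff gels over the 28 tested genes.

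**Figure D2:**
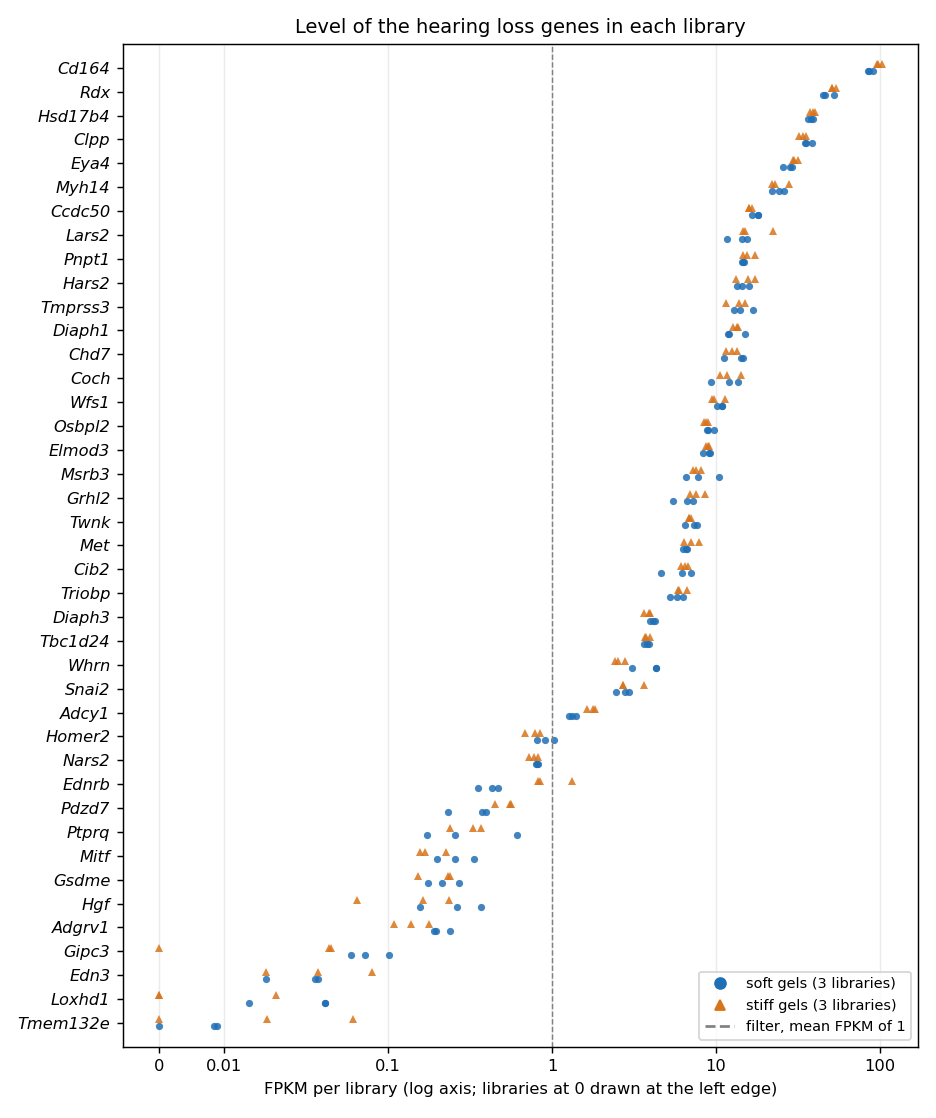
FPKM per library on a log axis for the 41 hearing loss genes, ordered by mean level, with circles for the 3 soft and triangles for the 3 stiff libraries; libraries at 0 are drawn at the left edge. Most symbols of a gene lie together, from about 90 FPKM for Cd164 down to 0 in some libraries for Tmem132e, Loxhd1 and Gipc3, and those of Whrn, Adcy1 and Ednrb separate by gel.

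Among the hair bundle genes, Whrn had the lowest unadjusted p of the 28 tested genes. Whrn encodes whirlin, a PDZ scaffold at the tips of stereocilia and at the ankle links of their base (chromosome 4, 63414908 to 63496083, build mm10). It was at 3.08, 4.28 and 4.32 FPKM in soft replicates 1 to 3 and at 2.79, 2.40 and 2.51 FPKM in stiff replicates 1 to 3. Every stiff library lay under every soft one, and soft replicate 1 was the soft library nearest to the stiff group. The means were 3.89 ± 0.708 and 2.57 ± 0.199 FPKM (SD, n = 3), a log2 fold change of -0.45 ± 0.11 (SE; 95% interval -0.71 to -0.19) that just missed the threshold (limma adjusted p = 0.0554). Whrn was called lower without soft replicate 1 (limma adjusted p = 0.00339), where 6.42% of genes were called lower, and its adjusted p was 0.117 to 0.19 when any other library was left out. A count-based fit on reads rebuilt from the FPKM (limma-voom) also called it lower, at a log2 fold change of -0.61 (adjusted p = 0.0435), with 3.94% of genes called lower in that fit. The authors' deposited table gives -0.63 ± 0.17 (SE) with q = 0.00377.

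The partners of whirlin in the ankle link complex were much less abundant. Adgrv1, a very large adhesion receptor that forms the links, had 94, 80 and 78 reads in soft and 56, 70 and 40 reads in stiff libraries, or 0.237, 0.196 and 0.191 against 0.137, 0.178 and 0.109 FPKM. Its groups did not overlap, with the stiff libraries lower. Pdzd7, a whirlin-like scaffold, had 43, 42 and 26 reads in soft and 63, 48 and 56 in stiff libraries, with every stiff library higher. In the fit on rebuilt reads without a filter the changes were -0.59 ± 0.22 for Adgrv1 (SE; 95% interval -1.08 to -0.10) and 0.64 ± 0.26 for Pdzd7 (0.07 to 1.22), and neither was called (adjusted p = 0.152 and 0.185). Whrn and Adgrv1 had their lower values in stiff gels and Pdzd7 its higher ones. In the GENCODE M21 annotation 206 exonic bases of Pdzd7 lie across from Lzts2, a gene of 25.2 FPKM on the other strand; the library kit does not mark the strand, so reads from that stretch cannot be told apart.

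Ptprq, a receptor phosphatase of stereocilia shafts that was under the filter, had 107, 31 and 46 reads in soft and 59, 64 and 39 reads in stiff libraries. Soft replicate 1 held more than any other library, and soft replicate 2 the fewest. Loxhd1, a stereocilia membrane protein, had 2, 6 and 6 reads in soft and 3, 0 and 0 in stiff libraries, which is near the limit of detection in both gels, so no fold is given. Cib2, a calcium-binding subunit of the mechanotransduction complex that is also made outside hair cells, was the most abundant gene of the group. Its values of 7.02, 6.18 and 4.64 FPKM in soft and 6.75, 6.47 and 6.09 FPKM in stiff libraries overlapped (log2 fold change 0.11 ± 0.12 SE, limma adjusted p = 0.661). Of the hair cell markers, Gfi1 and Otof lay near 0 in both groups and Myo7a was at 1.49 to 1.88 FPKM over the 6 libraries; their part in the levels of the bundle genes was not tested.

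Among neural crest and pigment cell genes, Ednrb stood higher in stiff gels in every library. Ednrb encodes the endothelin B receptor, needed for melanocyte precursors to reach the stria vascularis (chromosome 14, 103814615 to 103844508). It had 41, 46 and 35 reads in soft and 131, 78 and 75 reads in stiff libraries, or 0.428, 0.465 and 0.354 against 1.33, 0.821 and 0.842 FPKM. The lowest stiff library was above the highest soft one, and stiff replicate 1 was the highest of all. The means were 0.416 ± 0.0567 and 0.998 ± 0.288 FPKM (SD, n = 3), a ratio of 2.4, and its stiff mean fell just short of the filter at 1 FPKM, so the filtered test did not test it. Without the filter it was called higher (log2 fold change 0.49 ± 0.10 SE on the FPKM + 1 scale, limma adjusted p = 0.0438), as the only one of the 41 genes, where 1.92% of all genes were called higher. Rebuilt reads gave 1.21 ± 0.26 (SE; 95% interval 0.63 to 1.79; limma-voom adjusted p = 0.0215), and the authors' deposited table gives 1.24 ± 0.28 with q = 0.000513. The call without the filter was kept without soft replicate 1 (adjusted p = 0.0433) and lost when any other library was left out (0.0734 to 0.151).

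The ligand and the pigment cell regulators were rare or overlapped between the gels. Edn3, the ligand of the endothelin B receptor, had 2, 1 and 2 reads in soft and 1, 2 and 4 reads in stiff libraries, too few for a comparison. Mitf, the master transcription factor of melanocytes, had 37, 49 and 64 reads in soft and 43, 31 and 27 reads in stiff libraries, with overlapping groups and, if anything, lower stiff values (-0.52 ± 0.28 SE on rebuilt reads, limma-voom adjusted p = 0.348). Snai2, a zinc finger repressor of the neural crest, was at 2.93, 2.45 and 2.78 FPKM in soft and 2.71, 3.64 and 2.69 FPKM in stiff libraries, with stiff replicate 2 highest (log2 fold change 0.10 ± 0.11 SE, limma adjusted p = 0.654). Of 6 melanocyte markers 3 matched a row: Kit was at 33.6 ± 2.45 and 35.3 ± 2.72 FPKM, while Pmel and Mlana were at most 1.03 and 0.615 FPKM in any library. Glial cells of the ear also make Ednrb, and the glial marker S100b rose in stiff gels; the summed glial list was at 90.8 to 121 FPKM in soft and 114 to 140 FPKM in stiff libraries. Endothelial cells make Ednrb as well. Their summed markers ran from 391 to 457 FPKM over the soft libraries and from 340 to 426 FPKM over the stiff ones. Most of that sum was Emcn, with a mean of 376 FPKM over all libraries. Pecam1 of the same list had only 1 to 8 reads per library, and Cdh5 a mean of 1.11 FPKM. Cdh5 and Tek overlapped between the gels and were not called (limma adjusted p = 0.501 and 0.543). Kdr, an endothelial receptor gene of that list, fell from 24.7 ± 5.17 to 10.7 ± 2.04 FPKM (-1.13 ± 0.16 SE, limma adjusted p = 0.0104, up to 0.0568 with 1 library left out), the 1 called of 4 tested. The part of either cell type in the Ednrb values was not tested. Of the endothelin list outside the set (Edn1, Edn2, Ednra, Ece1 and Ece2), 2 were tested, 0 were called and 0 had an unadjusted p under 0.05 (limma).

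**Figure D3:**
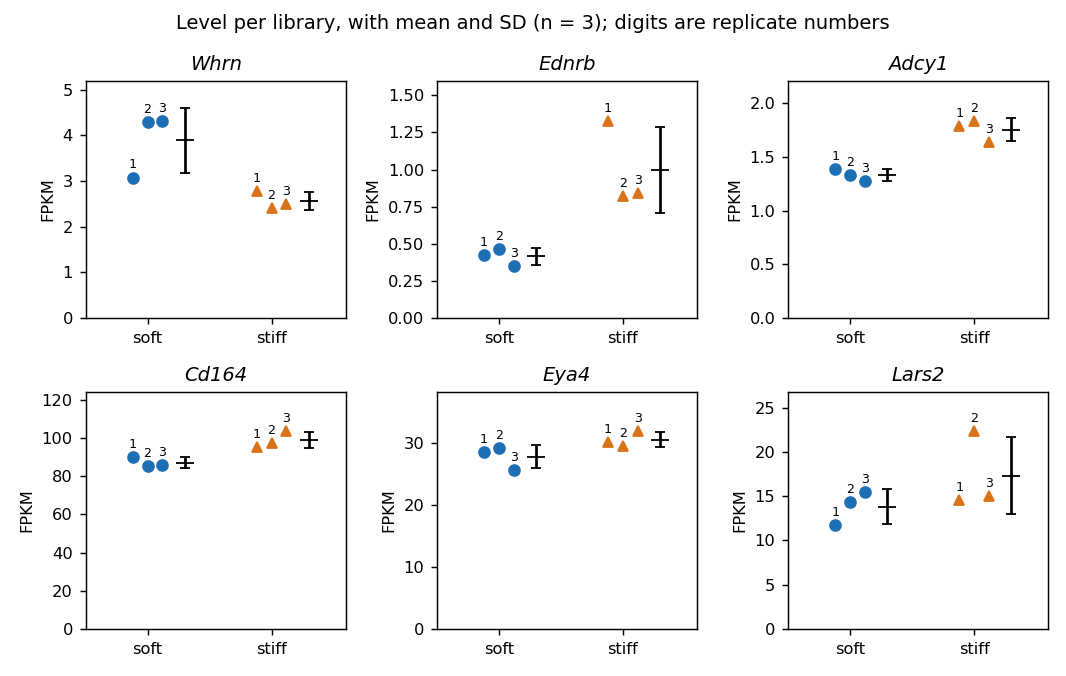
FPKM in each library (points, numbered by replicate) with the mean and SD of each group (n = 3), for 6 hearing loss genes chosen after their values were seen; each vertical axis starts at 0. Whrn is lower and Ednrb, Adcy1 and Cd164 are higher in all 3 stiff libraries, Eya4 separates by a small margin, and the higher stiff mean of Lars2 comes with 1 high library, stiff replicate 2.

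Of the transcription and chromatin regulators of the otic epithelium, 3 were tested and 0 were called, and 0 had an unadjusted p under 0.05 (limma). Eya4, a transcriptional coactivator with phosphatase activity (chromosome 10, 23102962 to 23350838), was at 28.5, 29.1 and 25.7 FPKM in soft and 30.1, 29.5 and 31.8 FPKM in stiff libraries. The lowest stiff library was above the highest soft one by a narrow margin (log2 fold change 0.13 ± 0.07 SE, 95% interval -0.02 to 0.29, limma adjusted p = 0.31). Grhl2, a grainyhead factor that maintains epithelial junctions, was at 7.22, 6.62 and 5.49 against 8.58, 6.90 and 7.54 FPKM, with overlap and a wider interval (0.22; -0.02 to 0.46). Chd7, the chromatin remodeller mutated in CHARGE syndrome, was at 11.2, 14.1 and 14.6 FPKM in soft and 13.4, 11.5 and 12.5 FPKM in stiff libraries; soft replicate 1 was the lowest of the 6. Of 16 tested paralogs of these and the neural crest factors (the Eya, Grhl, Chd, Esrr, Snai and Tfe families), 0 were called, with a median log2 fold change of -0.05 (limma). An unadjusted p under 0.05 was seen in 3 of the 16 (limma), and 2 genes of the list had q under 0.05 in the authors' deposited table. Without soft replicate 1, 3 were called.

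HGF signals through the receptor tyrosine kinase MET, and both genes cause recessive deafness when mutated. Met was at 6.52, 6.26 and 6.62 FPKM in soft and 7.87, 6.41 and 7.05 FPKM in stiff libraries, with overlap (log2 fold change 0.12 ± 0.08 SE, 95% interval -0.07 to 0.30). The ligand gene Hgf had only 13, 8 and 19 reads in soft and 12, 8 and 3 in stiff libraries, with a wide interval on rebuilt reads (-2.02 to 0.40). Of the surrounding axis 8 genes were tested and 3 were called, against 5.81% of all tested genes. Without soft replicate 1 there were 5. The genes of this axis were listed with earlier results of these data known, so their share is no independent evidence. Spint1, an inhibitor of the proteases that activate HGF, rose from 39.5 ± 1.00 to 51.0 ± 3.29 FPKM (0.36 ± 0.06 SE on the log2 scale, limma adjusted p = 0.0176). Plaur, the urokinase receptor gene, fell from 17.3 ± 4.58 to 6.66 ± 2.35 FPKM (-1.27 ± 0.24 SE, limma adjusted p = 0.0211), and Plau, its ligand, from 1.53 ± 0.155 to 0.647 ± 0.326 FPKM (-0.64 ± 0.15 SE, 0.0419). Each of the 3 calls was lost without at least 1 library (limma adjusted p up to 0.0671, 0.0948 and 0.149), and that of Plau also without a filter (adjusted p = 0.0575).

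Cytoskeletal hearing loss genes were well expressed and showed no called difference between the gels. Rdx encodes radixin, which ties actin to the membrane of stereocilia and of many other cells. It was at 52.3, 44.7 and 46.2 FPKM in soft and 51.2, 51.2 and 53.9 FPKM in stiff libraries, where soft replicate 1 was at the level of the stiff group (log2 fold change 0.13 ± 0.07 SE, 95% interval -0.03 to 0.29). Myh14, a nonmuscle myosin heavy chain, was at 25.9, 24.2 and 22.1 against 28.1, 22.9 and 22.1 FPKM, with an interval of -0.21 to 0.23. Diaph1, a formin that elongates actin filaments, was at 15.0, 12.1 and 11.9 against 13.6, 12.8 and 13.5 FPKM (-0.17 to 0.24). Its relative Diaph3 was at 4.11, 4.23 and 3.98 FPKM in soft and 3.63, 3.89 and 3.98 FPKM in stiff libraries; the stiff values were all lower, with the nearest pair almost equal (log2 fold change -0.08 ± 0.07 SE, limma adjusted p = 0.596). Triobp, which bundles the actin rootlets of stereocilia, and Elmod3, a GTPase-activating protein, had log2 fold changes of 0.08 and 0.01 with overlapping groups.

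Relatives of these genes were called in both directions. Of 17 tested formins, ERM proteins, nonmuscle myosins and related genes outside the set, 2 rose and 3 fell, against 5.81% of all tested genes in either direction. These relatives too were listed with earlier results of these data known, so their share is no independent evidence. Ezr, which encodes ezrin, the epithelial relative of radixin, rose from 48.2 ± 7.19 to 65.2 ± 5.70 FPKM (0.43 ± 0.11 SE on the log2 scale, limma adjusted p = 0.0478), as did the formin gene Daam2 (0.41 ± 0.08 SE, 0.02). Myh9, the relative of Myh14 that is itself a deafness gene, fell from 57.4 ± 3.22 to 45.2 ± 4.93 FPKM (-0.34 ± 0.08 SE, limma adjusted p = 0.0483). The formin genes Inf2 and Fhod3 fell, with log2 fold changes of -0.75 and -0.41 (limma adjusted p = 0.02 and 0.0185). Each of these 5 calls was lost without at least 1 library (limma adjusted p up to 0.165, 0.0784, 0.167, 0.0852 and 0.076). Those of Ezr and Myh9 were also lost without a filter (limma adjusted p = 0.0754 and 0.0692), and whether the relatives differ from the genes of the set was not tested.

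Genes of mitochondrial protein synthesis and other organelle enzymes, several of which cause Perrault syndrome (deafness with ovarian failure), gave no call either, and among those tested Lars2 and Msrb3 alone had intervals reaching past ±0.3. Hars2 and Lars2 charge mitochondrial tRNAs with histidine and leucine. Hars2 was at 13.4, 15.9 and 14.4 FPKM in soft and 13.3, 15.7 and 17.2 FPKM in stiff libraries (log2 fold change 0.07 ± 0.10 SE). Lars2 was at 11.7, 14.4 and 15.4 FPKM in soft and 14.6, 22.3 and 15.0 FPKM in stiff libraries. Stiff replicate 2 was far above the rest, and the other stiff libraries lay inside the soft range (log2 fold change 0.29 ± 0.16 SE, 95% interval -0.07 to 0.64); without stiff replicate 2 the log2 fold change was 0.10. Nars2, the asparagine enzyme, was under the filter but well covered, with 221, 225 and 222 reads in soft and 213, 192 and 205 in stiff libraries (-0.10 ± 0.11 SE on rebuilt reads, 95% interval -0.34 to 0.14). All 16 further mitochondrial or shared aminoacyl-tRNA synthetase genes of the list were tested and 0 were called, with log2 fold changes from -0.07 to 0.15 (limma; 0 had an unadjusted p under 0.05).

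Twnk, the helicase of mitochondrial DNA, was at 7.36, 6.51 and 7.61 FPKM in soft and 6.86, 6.84 and 7.03 FPKM in stiff libraries (log2 fold change -0.04 ± 0.07 SE, 95% interval -0.21 to 0.12). Twnk shares 507 exonic bases with Mrpl43 on the other strand (23.9 FPKM), and Hars2 shares 195 with Hars (37.7 FPKM), so part of the reads of either gene could belong to its neighbour. Cib2, Homer2, Nars2, Grhl2 and Hgf also share over 100 exonic bases with another annotated gene. Clpp, the mitochondrial matrix protease, was at 35.4, 34.9 and 38.4 against 31.9, 34.1 and 35.5 FPKM, and Pnpt1, a mitochondrial RNA-processing exonuclease, at 14.5, 14.7 and 14.8 against 14.7, 15.5 and 17.2 FPKM. The soft values of Pnpt1 were very close to each other, and stiff replicate 3 stood above them. Hsd17b4, a peroxisomal enzyme of fatty acid oxidation, was at 36.3, 38.2 and 39.2 against 37.6, 40.5 and 39.1 FPKM and had the narrowest interval of these genes (-0.09 to 0.18). Msrb3, which repairs oxidized methionine, was at 10.4, 7.74 and 6.58 FPKM in soft and 7.51, 7.27 and 8.12 FPKM in stiff libraries; soft replicate 1 alone was high. Among 12 tested genes of mitochondrial DNA maintenance and proteolysis, 1 was called, Polg2, the accessory subunit of the mitochondrial polymerase, which rose from 2.60 ± 0.258 to 3.95 ± 0.420 FPKM (limma adjusted p = 0.0275, up to 0.108 if 1 library was dropped). On rebuilt reads Polg2 was not called (limma-voom adjusted p = 0.0756), and 0 genes of that list had q under 0.05 in the authors' deposited table. Of 9 tested peroxisomal genes 0 were called and 2 had an unadjusted p under 0.05 (limma); without soft replicate 1, 1 was called.

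Membrane and vesicle proteins held the most abundant gene of the set. Cd164 encodes endolyn, a sialomucin of endosomes and the cell surface (chromosome 10, 41519500 to 41531042). It was at 90.2, 85.1 and 85.8 FPKM in soft and 95.5, 97.5 and 103 FPKM in stiff libraries. Every stiff library was higher, by a small margin relative to the level (log2 fold change 0.18 ± 0.06 SE, 95% interval 0.04 to 0.32, limma adjusted p = 0.118), and the adjusted p stayed at 0.0706 or above whichever library was left out. Tmprss3, a transmembrane serine protease of the sensory epithelium, was at 14.0, 16.7 and 12.8 FPKM in soft and 15.0, 13.9 and 11.4 FPKM in stiff libraries, with broad overlap. Wfs1, the endoplasmic reticulum protein of Wolfram syndrome, Osbpl2, an oxysterol-binding protein, and Tbc1d24, a regulator of vesicle traffic, had log2 fold changes of -0.06, -0.06 and 0.01, with overlapping groups in each. Tmem132e, a membrane protein of hair cells, had 1, 1 and 0 reads in soft and 7, 2 and 0 in stiff libraries, so most of its libraries were at or under 3 reads and no fold is given.

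Adcy1 led the signalling genes. It encodes an adenylyl cyclase stimulated by calcium and calmodulin (chromosome 11, 7063433 to 7178506), and was at 1.39, 1.33 and 1.27 FPKM in soft and 1.79, 1.84 and 1.64 FPKM in stiff libraries. All stiff libraries were above all soft ones, with little spread in either group. The log2 fold change was 0.24 ± 0.08 (SE; 95% interval 0.05 to 0.43) and was not called (limma adjusted p = 0.135, and 0.121 to 0.345 over the fits that leave out 1 library). On rebuilt reads, a scale that does not compress low genes, it was 0.37 ± 0.10 (SE) and was called (limma-voom adjusted p = 0.0428; 3.73% of genes were called higher in that fit). The authors' deposited table gives 0.37 ± 0.13 with q = 0.0526. Its relative Adcy5 was the only one of 21 tested paralogs in the adaptor and enzyme families that was called, from 0.569, 0.683 and 0.651 FPKM in soft to 1.61, 1.15 and 1.22 FPKM in stiff libraries (0.51 ± 0.11 SE, limma adjusted p = 0.0292, up to 0.105 with 1 library left out; 2 were called without soft replicate 1).

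Ccdc50, a ubiquitin-binding adaptor in EGF receptor signalling, was at 16.5, 18.0 and 18.0 FPKM in soft and 15.8, 16.6 and 16.0 FPKM in stiff libraries. Stiff replicate 2 lay just above soft replicate 1, so the groups overlapped (log2 fold change -0.11 ± 0.06 SE, 95% interval -0.25 to 0.03). Homer2, a synaptic and stereocilia scaffold, was at 0.903, 0.810 and 1.03 FPKM in soft and 0.784, 0.685 and 0.846 FPKM in stiff libraries and under the filter (-0.26 ± 0.14 SE on rebuilt reads, limma-voom adjusted p = 0.345). Gsdme, a pore-forming gasdermin of inflammatory cell death, had 39, 51 and 33 reads in soft and 45, 42 and 26 in stiff libraries. Gipc3, a PDZ adaptor of hair cells, had 4, 7 and 5 reads in soft and 3, 3 and 0 in stiff libraries. The Gipc3 groups did not overlap, but every value was within a few reads of the limit of detection. Coch encodes cochlin, an abundant matrix protein of the spiral ligament. It was at 9.31, 13.7 and 12.1 FPKM in soft and 10.5, 14.2 and 11.8 FPKM in stiff libraries. Each group had 1 low library, replicate 1 in both, and the groups overlapped over nearly their whole range (log2 fold change 0.06 ± 0.14 SE, 95% interval -0.26 to 0.37). Fibrocyte and mesenchyme markers summed to 168 to 225 FPKM in soft and 159 to 193 FPKM in stiff libraries, with 0 of 5 tested markers called (limma). Stiff means were lower for Col1a1, Col1a2, Col3a1 and Twist1 and higher for Pou3f4, Tbx18 and Pdgfra. Col3a1 overlapped (72.7 ± 25.6 and 35.1 ± 10.1 FPKM) and was called lower on rebuilt reads (limma-voom adjusted p = 0.0446). Col1a2, under the filter, had 46, 42 and 55 reads in soft and 15, 9 and 10 in stiff gels. It was called lower without the filter (limma adjusted p = 0.0144). That call was lost if any library but soft replicate 1 was dropped (limma adjusted p up to 0.0673).

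Over all 41 genes, including those under the filter, groups that did not overlap were seen in 9, against 24.8% of the genes listed. Whrn and Ednrb, 2 of the 41, had q under 0.05 in the authors' deposited table, against 8.12% of its genes. In the count-based fit on the 28 tested genes Adcy1 was higher and Whrn lower. In the same fit without a filter 2 of the 41, Ednrb and Adcy1, were higher and 1, Whrn, was lower, against 3.1% and 3.52% of all genes.

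Other hereditary hearing loss genes, listed outside the set, included several that differed between the gels. Of 93 listed genes 80 matched a row, 60 were tested, and 9 rose and 4 fell (21.7% called, against 5.81% of all tested genes); their median log2 fold change was 0.14. That list was drawn up with earlier results of these data known, so its share is no independent evidence. Otoa, which encodes otoancorin, the anchor of the tectorial membrane, rose from 8.12 ± 0.50 to 18.6 ± 2.16 FPKM (1.10 ± 0.09 SE on the log2 scale, limma adjusted p = 0.00171). Crym, a thyroid hormone-binding crystallin, rose from 82.2 ± 7.57 to 134 ± 6.81 FPKM (0.70 ± 0.08 SE, adjusted p = 0.00494). Cldn9, a tight junction claudin of the organ of Corti, rose from 143 ± 3.81 to 188 ± 4.22 FPKM (0.39 ± 0.06 SE, 0.0104). Among the lower genes, Fgf3, a growth factor of otic induction, fell from 15.2 ± 1.84 to 8.95 ± 1.05 FPKM (-0.70 ± 0.10 SE, 0.0104), and the collagen gene Col11a1 from 86.7 ± 7.88 to 65.3 ± 4.0 FPKM (-0.40 ± 0.08 SE, 0.0249). Of the 13 calls, those of Otoa and Crym were kept whichever library was dropped (highest limma adjusted p 0.0142 and 0.0375), and the other 11 were lost at least once. The count was 25 without soft replicate 1 and as low as 4 with another library left out.

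**Figure D4:**
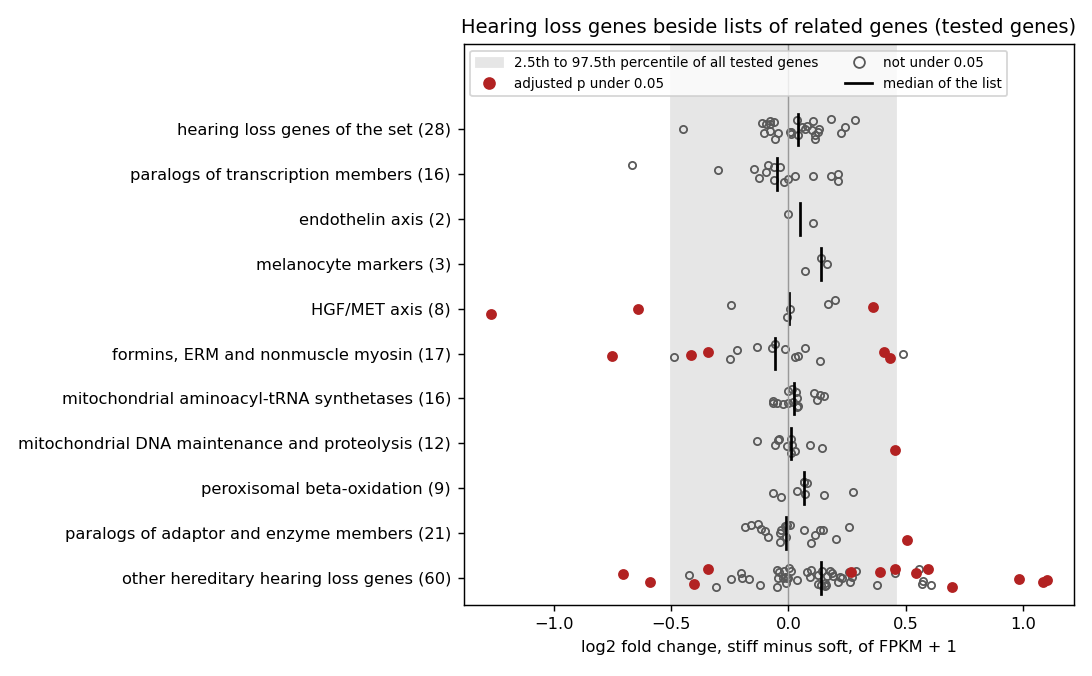
Log2 fold change (stiff minus soft, of FPKM + 1) of each tested gene on the horizontal axis, for the 28 hearing loss genes described here (top row) and for lists of related genes, with the number tested in brackets; filled points have a limma adjusted p under 0.05, vertical bars are list medians and the grey band holds the 2.5th to 97.5th percentile of all tested genes (-0.50 to 0.46). All 28 points of the top row lie inside the band and are open, while the bottom row has 13 filled points.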

How the data were processed

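Per the labels' protocols, total RNA (TRIzol, then RNeasy columns) went into unstranded TruSeq RNA v2 libraries, which an Illumina HiSeq 2500 read. The submitters' processing notes name TopHat2 2.1.1, the build mm10 and DESeq2; of the counter and the annotation nothing is given in the sources used here. The 6 columns of expression, deposited by the authors, were taken as FPKM from their values, since the header says only expression. The table's base mean is a signal deposited by the authors (mean normalized counts). Its log2 fold change, linear fold change, test statistic (a score), p-value and q-value are the authors' own comparison, per the file headers, and are printed only where named.

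Genes with a mean of at least 1 FPKM in either group were fitted as log2(FPKM + 1) with limma 3.58.1 (R 4.3.3, intensity trend, no block), with Benjamini-Hochberg adjustment over all 11780 genes. FPKM + 1 understates changes of low genes. Reads per gene were rebuilt from the FPKM steps and the base mean: 100% of values were whole within 0.05 reads. They gave depths and a limma-voom alternative. Rebuilding and fits were tested on simulated data. Coordinates are RefSeq's for GRCm38.p6, the assembly of mm10, matched by gene number; overlaps of over 100 exonic bases are from GENCODE M21.

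Genes and lists were chosen with earlier results of these data known. All called genes and those with q under 0.05 in the authors' table were to be named, with every other gene of the set accounted for and up to 3 called genes per related list and direction; some called genes of the related lists are not reported here. Alternatives were another pseudocount, filters, scaling, trend, a replicate block, rebuilt reads and each library left out.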

Additional observations from a re-analysis of the deposited data

How the results depend on the processing

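Of 364 recomputed log2 fold changes (28 genes under 13 alternatives), 341 kept direction and side of the threshold, 3 became calls (Whrn without soft replicate 1 and, with Adcy1, on rebuilt reads) and 20, in 9 genes, changed sign; 0 of those 20 were called and the largest was 0.09 in size. Scaled by median ratios, and in limma-voom, Myh14 was at -0.0151 and -0.0105, Elmod3 at -0.0184 and -0.0153 and Tbc1d24 at -0.0122 and -0.0103; the median of all genes moved from 0.03 to under 0.01. With single libraries left out the ranges were -0.00543 to 0.16 for Snai2, -0.0171 to 0.14 for Diaph1, -0.0906 to 0.0767 for Myh14, -0.0307 to 0.0308 for Elmod3, -0.0295 to 0.22 for Cib2, -0.00954 to 0.17 for Hars2, -0.21 to 0.0836 for Msrb3, -0.013 to 0.0313 for Tbc1d24 and -0.0835 to 0.17 for Coch; the cause was not tested.

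The count of hearing loss genes called higher, 0, became 1 with no filter or with a filter at 0.1 FPKM (Ednrb, since more genes were tested), 1 on rebuilt reads (Adcy1) and 2 on rebuilt reads with no filter, chosen after seeing the data. The count called lower, 0, became 1 on rebuilt reads with and without the filter (Whrn), and ranged from 0 to 1 with single libraries left out. With no filter and single libraries left out, also chosen after seeing the data, both counts ranged from 0 to 1. Over all tested genes 369 were higher and 316 lower; with single libraries left out, 50 to 859 were higher and 15 to 756 lower, most without soft replicate 1 and fewest without soft replicate 2. With the replicate number as a block 381 were higher and 329 lower, and 0 hearing loss genes were called. Deviations from the group means correlated at 0.00873, 0.219 and -0.211 for numbers 1 to 3, and soft replicate 1 correlated best with stiff replicate 3. Deviations from a mean of 3 libraries depend on each other, so these correlations cannot tell whether libraries of the same number shared a culture. Depth limits Edn3, Loxhd1, Gipc3 and Tmem132e, which had under 10 reads in every library.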
